A study of Saccharomyces cerevisiae with 8 samples.

Results

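The nuclear pore complex of budding yeast is the channel through the nuclear envelope, and 36 genes of this pore and of the soluble carriers that pass through it were followed here, out of 6002 protein-coding genes of the nuclear genome. They were chosen by name and function: 6 proteins of the outer ring, 6 of the inner ring, 4 membrane proteins, 5 FG proteins of the central channel, 5 proteins of the cytoplasmic side, 5 of the nuclear basket and 5 transport factors. Their coding regions are long. The median coding length was 2496 nt for the 36 genes and 1194 nt for all 6002, and 15 of the 36 genes (41.7%) reached 3000 nt, against 523 of 6002 (8.71%). The shortest was GSP1 with 660 nt and the longest MLP1 with 5628 nt.

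The pore is built from nucleoporins. Outer and inner rings form the scaffold, membrane proteins anchor it in the envelope, and disordered proteins rich in phenylalanine-glycine (FG) repeats fill the channel and bind passing carriers. Importins and exportins carry proteins through this mesh, and the small GTPase Ran, GSP1 in yeast, sets the direction of transport by loading and releasing cargo on the proper side.

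The RNA came from BY4741, a laboratory strain of mating type a with the alleles his3delta1, leu2delta0, ura3delta0 and met15delta0, harvested in mid-log growth in rich medium with glucose. Libraries were made from those 5' ends of polyadenylated RNA that could be ligated. Total RNA was first treated with a phosphatase, which takes away the 5' phosphate that ligation needs, and was then divided among 4 treatments. DPH (Decapping Pyrophosphohydrolase), Cap-Clip (an acid pyrophosphatase) and TAP (Tobacco Acid Pyrophosphatase) each open the cap and leave an end that can be ligated, and the last aliquot received no enzyme. Each treatment had 2 libraries, and the comparisons ask how far the enzymes and the control give the same counts. All 4 groups share strain, medium and phosphatase step, and the labels do not say whether replicates 1 and 2 are separate cultures, so the p-values measure the spread between these libraries only. Each counted end, or tag, was placed on the R64 (sacCer3) genome. The totals were 1789278 and 3479399 tags with DPH, 1268757 and 8475181 with Cap-Clip, 10739034 and 1747139 with TAP, and 736236 and 80721 without enzyme.

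The 5' region of a gene covered 400 nt before the start codon and 50 nt after its first base, and was shorter for 11 of the 36 genes, where a coding region on the same strand lies closer. These regions held 3518 and 7829 tags with DPH, 3401 and 25398 with Cap-Clip, 35096 and 5295 with TAP, and 519 and 134 without enzyme. All 36 genes had tags in every enzyme-treated library and in no-enzyme replicate 1, and 26 of 36 had any in no-enzyme replicate 2. That small library stood apart from its replicate: 82.2% of its tags in the 5' regions of all genes began at a purine preceded by a pyrimidine, the usual yeast start, against 45.4% in no-enzyme replicate 1. The same share was 83.8% and 80.8% with DPH, 90.9% and 89.7% with Cap-Clip, and 89.5% and 91.0% with TAP. Log2 fold changes against no enzyme are therefore given with and without that library.

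The main start of a gene is the position with the highest mean CPM, tags scaled to 1000000 per library, over the 6 enzyme-treated libraries. In each of the 36 genes it was a purine after a pyrimidine, as in 98.9% of the 5036 genes with enough tags for a test. The first base was A in 28 genes and G in 8. The distance to the start codon had a median of 50.5 nt and ran between 17 nt in NIC96 and 299 nt in CRM1, against a median of 47.0 nt over all genes with a main start upstream of the start codon. No leader of the 36 held an ATG, which 14.1% of all genes had. TATAAA, searched on both strands in the 150 nt upstream of the main start, was present in 9 of 36 genes, against 28.5% of all. The strongest position was the same as the main start in 30 of 36 genes with DPH, 34 with Cap-Clip and 33 with TAP.

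The following 30-base windows of the R64 genome, written 5' to 3' on the strand of the gene, show where RNA begins in the 10 most abundant of these genes and in the genes with the largest differences between DPH and TAP. The capitals mark the last base before the main start and the first transcribed base.
GSP1, Ran GTPase, chrXII:721458-721487, minus strand: caatcgatttttagtccagTAcaaaaggaa
SRP1, importin alpha, chrXIV:284048-284077, plus strand: gtaaggtaaggaaaacccgCAttcactgac
SEH1, outer ring, chrVII:313177-313206, plus strand: ttcccttctgaagagatacTAaggaagaag
POM33, membrane, chrXII:98857-98886, minus strand: tttctctattcataaggagCAagaaacact
KAP123, importin, chrV:382206-382235, minus strand: attagtcaacaaaaaagaaTAggcaagacc
NUP2, basket, chrXII:797387-797416, plus strand: catacaagtccttgttaagTAactcaaaaa
NUP60, basket, chrI:152195-152224, plus strand: acatcaaataacagaccttTAcatcaaata
NUP49, FG channel, chrVII:180648-180677, plus strand: gatgagacgataaaaacagTAattgagagg
NUP57, FG channel, chrVII:729751-729780, minus strand: aactttttgccaaagggacTGaaagactaa
NUP85, outer ring, chrX:514012-514041, plus strand: tgagttgagtcaataagcgTGagccagaac
NUP53, inner ring, chrXIII:564372-564401, plus strand: ttcaaatatacagctcagcTAgcccaaatt
MLP1, basket, chrXI:619628-619657, plus strand: gatatcaataaaagtggtcCAttgagtctt
NUP157, inner ring, chrV:372025-372054, minus strand: agaaacatttcacaaaaacTAcagctcgga
NIC96, inner ring, chrVI:149979-150008, plus strand: aacacttgtgaagaaaagtCAcaaagaagt

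The first comparison set DPH against TAP over the 5' regions. With DPH, 17 of the 36 genes fell and 3 rose, at a Benjamini-Hochberg adjusted p under 0.05 in edgeR's quasi-likelihood test over all genes. Over all 5036 regions tested, 23.8% fell and 23.8% rose. In the outer ring 4 of 6 genes fell, in the inner ring 4 of 6 and in the basket 3 of 5. The median coding lengths of these groups were 2674.5, 4342.5 and 3231 nt, against 2496 nt over the 36 genes. Among membrane proteins 1 of 4 fell, among FG proteins 1 of 5, and on the cytoplasmic side and among transport factors 2 of 5 each. The 3 that rose were GSP1, the membrane protein POM33 and the linker NUP53. The median log2 fold change was -0.37 over the 36 genes and -0.03 over all regions. Values in this and the next comparisons of enzymes are CPM after TMM scaling, which sets the typical region equal in all libraries. Each RNA gives a single 5' end, so these levels are not divided by length. Scaling to library totals instead moved the median of all regions to -0.77. The 17 genes then also passed the test as lower, none of the 36 passed as higher, and 31 passed as lower, against 4.9% higher and 63.9% lower of all regions. Every direction in these comparisons is therefore relative to the typical gene. The treatments were applied to aliquots of total RNA, so a difference between enzymes is a difference in counted ends.

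**Figure D1:**
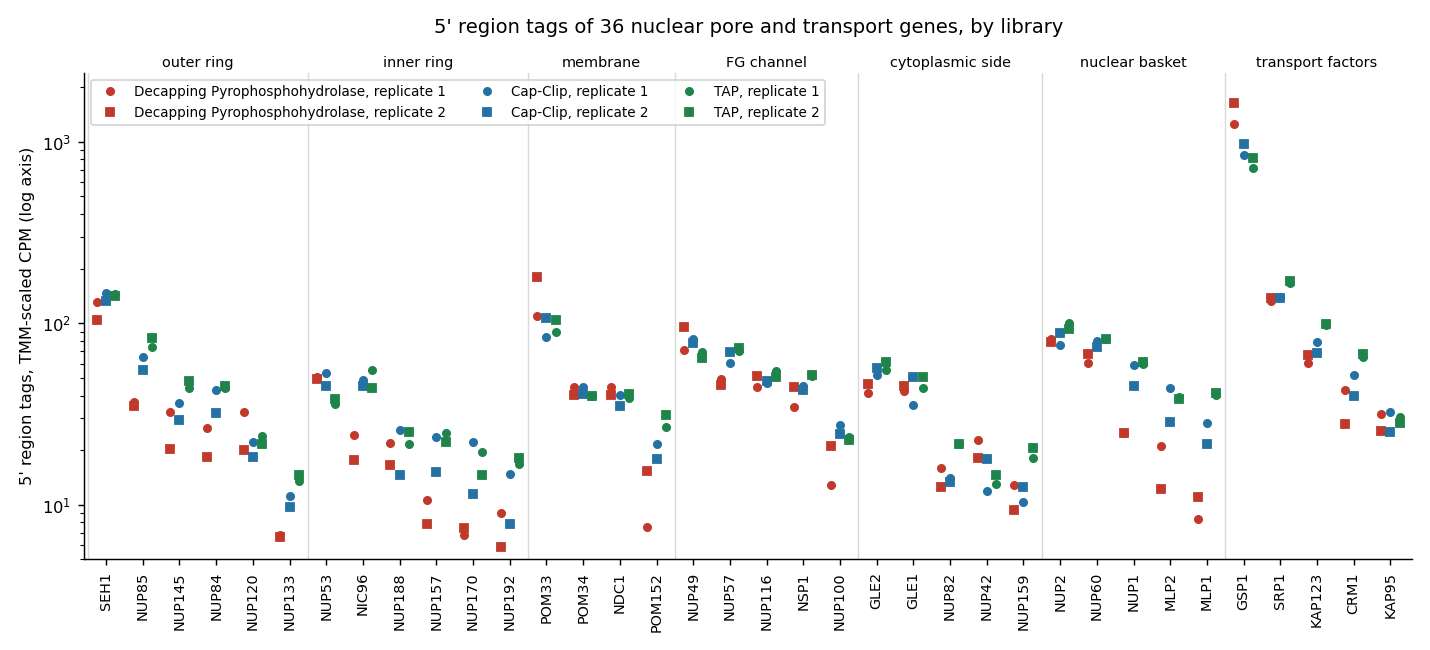
Tags in the 5' region of each of the 36 genes (TMM-scaled CPM, log axis), grouped by role, with DPH libraries in red, Cap-Clip in blue and TAP in green, and circles and squares for replicates 1 and 2. Levels ran between a mean of 10.4 CPM over the 6 libraries for NUP133 and 1041 CPM for GSP1, and in the basket gene MLP1 both DPH libraries lay below all 4 others.

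In the outer ring, a Y-shaped scaffold that coats the curved membrane, 4 of 6 genes fell and none rose, with a median log2 fold change of -0.95. NUP85 (chrX:514055-516289, plus strand), a subunit of the short arm of the Y, had 37.0 and 34.9 CPM with DPH and 73.7 and 83.1 CPM with TAP. Both DPH libraries lay well below both TAP libraries, and the log2 fold change was -1.11 (SE 0.17, edgeR adjusted p = 9.3e-05). NUP84 (chrIV:251566-253746, plus strand), after which the subcomplex is named, had 26.4 and 18.4 CPM with DPH and 43.9 and 45.3 CPM with TAP, a log2 fold change of -1.05 (SE 0.21, edgeR adjusted p = 0.00102). The groups did not overlap. NUP145 (chrVII:337906-341859, plus strand) encodes a precursor that cuts itself into an FG protein and a ring subunit, and it had 32.5 and 20.4 CPM with DPH against 44.1 and 48.3 CPM with TAP. NUP133 (chrXI:592825-596298, plus strand), at the tip of the stem, had 6.79 and 6.66 CPM with DPH against 13.6 and 14.6 CPM with TAP. Their log2 fold changes were -0.86 and -1.04. Both calls were lost without DPH replicate 2, and that of NUP133 also without TAP replicate 1. SEH1, a small propeller protein of the short arm, had 131 and 104 CPM with DPH and 144 and 142 CPM with TAP and did not pass (edgeR adjusted p = 0.113). NUP120, the other arm, overlapped between the groups, with 32.5 and 19.99 CPM with DPH and 24.0 and 21.7 CPM with TAP.

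The inner ring lines the pore beside the membrane. Of its 6 genes 4 fell and 1 rose, with a median of -1.31. NIC96 (chrVI:150016-152535, plus strand), which ties the FG trimer of the channel to the scaffold, had 24.2 and 17.6 CPM with DPH and 55.4 and 43.8 CPM with TAP. DPH gave less than any TAP library, with a log2 fold change of -1.35 (SE 0.21, edgeR adjusted p = 0.000103). NUP157 (chrV:367838-372013, minus strand), a large scaffold protein, had 10.6 and 7.84 CPM with DPH and 24.8 and 22.2 CPM with TAP, a log2 fold change of -1.44 (SE 0.28, edgeR adjusted p = 0.000756). Its paralogue NUP170 (chrII:75259-79767, plus strand) had 6.79 and 7.45 CPM with DPH and 19.4 and 14.6 CPM with TAP, a log2 fold change of -1.33 that was lost without TAP replicate 1. Both members of the pair were thus lower in both DPH libraries. NUP192 (chrX:368748-373799, minus strand), among the largest scaffold proteins, had 9.06 and 5.88 CPM with DPH and 16.8 and 18.1 CPM with TAP, a log2 fold change of -1.29 that was lost without DPH replicate 2. NUP188, its relative in the ring, had 21.9 and 16.5 CPM with DPH and 21.5 and 25.2 CPM with TAP and did not pass (log2 fold change -0.28, edgeR adjusted p = 0.392). The far end of its region overlaps a small nucleolar RNA gene, described with the no-enzyme libraries, and with 200 nt upstream in place of 400 the value was -0.97 (edgeR adjusted p = 0.016). NUP53 (chrXIII:564435-565862, plus strand), a short linker protein that binds the membrane, had 50.6 and 49.4 CPM with DPH and 35.8 and 38.3 CPM with TAP, above in both libraries. Its rise of 0.45 (edgeR adjusted p = 0.035) was lost without TAP replicate 1, TAP replicate 2 or DPH replicate 2 and in DESeq2, and turned to -0.30 under library totals.

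Among the 4 membrane proteins, POM33 rose, POM152 fell, and the median was 0.09. POM33 (chrXII:97997-98836, minus strand), which takes part in distributing pores over the envelope, had 110 and 180 CPM with DPH and 89.5 and 104 CPM with TAP. Its log2 fold change was 0.63 (SE 0.19, edgeR adjusted p = 0.0145), and the call rested on DPH replicate 2, the higher library, without which it was 0.22 (edgeR adjusted p = 0.335). It was also lost without TAP replicate 1, and turned to -0.11 under library totals. POM152 (chrXIII:527804-531817, plus strand), the main protein of the ring in the lumen of the envelope, had 7.55 and 15.3 CPM with DPH and 26.8 and 31.2 CPM with TAP, a log2 fold change of -1.17 (SE 0.26, edgeR adjusted p = 0.00173). NDC1, shared by pores and the spindle pole body, had 44.5 and 40.4 CPM with DPH and 38.8 and 40.8 CPM with TAP, which overlap. POM34, a partner of POM152, had 44.5 and 40.4 CPM with DPH and 39.7 and 39.8 CPM with TAP, a log2 fold change of 0.08 that did not pass (edgeR adjusted p = 0.706) and was -0.66 under library totals.

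Of the 5 FG proteins of the channel 1 fell and none rose. NUP57 (chrVII:728046-729671, minus strand), one of the trimer that NIC96 holds, fell, with 49.1 and 45.9 CPM with DPH and 70.6 and 73.0 CPM with TAP and a log2 fold change of -0.60 (SE 0.16, edgeR adjusted p = 0.00533), a call that DESeq2 did not make. Its partners in the trimer did not pass. NSP1 had 34.7 and 44.3 CPM with DPH and 50.9 and 51.9 CPM with TAP, and NUP49 had 71.0 and 94.9 CPM with DPH and 69.9 and 64.5 CPM with TAP. NUP57 and NSP1 were thus lower, and NUP49 higher, in both DPH libraries, the last with -0.42 under library totals. The GLFG proteins NUP100 and NUP116, a paralogue pair that binds karyopherins, had log2 fold changes of -0.36 and -0.14 and did not pass either.

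On the cytoplasmic side, where exported messenger RNA is stripped of its export factors, NUP82 and NUP159 fell and none of the 5 rose. NUP159 (chrIX:144327-148709, minus strand), the docking site of the helicase of RNA export, had 12.8 and 9.41 CPM with DPH and 18.2 and 20.6 CPM with TAP. NUP82 (chrX:320016-322157, plus strand), its anchor, had 15.9 and 12.5 CPM with DPH and 21.5 and 21.7 CPM with TAP. DPH lay below TAP in both genes, with log2 fold changes of -0.82 and -0.65 (edgeR adjusted p = 0.0153 and 0.0292). Both calls were lost in DESeq2 and without TAP replicate 1, TAP replicate 2 or DPH replicate 2. GLE2, an RNA export factor bound to NUP116, had 41.5 and 46.3 CPM with DPH and 55.2 and 60.9 CPM with TAP (edgeR adjusted p = 0.0673). GLE1, the activator of the export helicase, and the FG protein NUP42, its partner, had log2 fold changes of -0.08 and 0.57 and did not pass, and NUP42 was -0.19 under library totals.

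The basket reaches into the nucleus, and 3 of its 5 genes fell, with a median of -1.29. MLP1 (chrXI:619805-625432, plus strand), a long coiled-coil filament protein and the longest of the 36 genes, had 8.30 and 10.98 CPM with DPH and 40.0 and 41.3 CPM with TAP. Both DPH libraries lay far below both TAP libraries, and the log2 fold change of -2.01 (SE 0.23, edgeR adjusted p = 1.12e-05) was the lowest of the 36. Its paralogue MLP2 (chrIX:63028-68067, minus strand) had 21.1 and 12.2 CPM with DPH and 39.3 and 38.3 CPM with TAP, a log2 fold change of -1.33 (SE 0.26, edgeR adjusted p = 0.00074). NUP1 (chrXV:507948-511178, minus strand), an FG protein that binds importins at the end of import, had 24.9 and 24.7 CPM with DPH and 60.0 and 61.4 CPM with TAP. The replicates were close and the groups far apart, with a log2 fold change of -1.29 (SE 0.18, edgeR adjusted p = 6.42e-05). NUP60, which tethers the MLP proteins, and NUP2, a mobile FG protein, are shorter and did not pass, with log2 fold changes of -0.34 and -0.28.

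Of the transport factors, GSP1 rose and CRM1 and KAP123 fell. GSP1 (chrXII:720771-721430, minus strand) was the most abundant of the 36 genes. It had 1249 and 1644 CPM with DPH and 720 and 820 CPM with TAP, all higher with DPH, a log2 fold change of 0.91 (SE 0.19, edgeR adjusted p = 0.00136). Under library totals the value was 0.20 and did not pass (edgeR adjusted p = 0.371). GSP1 took 47.0% and 53.6% of the tags of the 36 genes with DPH and 28.4% and 30.7% with TAP. It has a near-identical paralogue, GSP2, and how reads that match both were placed is not given in the sources used here. CRM1 (chrVII:932541-935795, plus strand), the main exportin, had 43.0 and 27.8 CPM with DPH and 65.4 and 68.0 CPM with TAP, a log2 fold change of -0.97 (SE 0.20, edgeR adjusted p = 0.0011). KAP123 (chrV:378762-382103, minus strand), the importin of ribosomal proteins, had 60.4 and 66.6 CPM with DPH and 97.9 and 99.7 CPM with TAP, a log2 fold change of -0.62 (SE 0.15, edgeR adjusted p = 0.00302). The classical importin pair did not pass. SRP1, which binds the cargo, had 132 and 137 CPM with DPH and 167 and 171 CPM with TAP, and KAP95, which carries it through the pore, had 31.7 and 25.5 CPM with DPH and 30.6 and 28.2 CPM with TAP.

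Leaving out 1 library at a time kept 11 of the 17 lower calls in all 6 fits: CRM1, KAP123, MLP1, MLP2, NIC96, NUP1, NUP57, NUP84, NUP85, NUP157 and POM152. Of the 3 higher calls GSP1 was kept. DESeq2 kept 13 of the 17 lower calls, without NUP57, NUP82, NUP133 and NUP159, and 2 of the 3 higher ones. With all 8 libraries in 1 fit the log2 fold change of GSP1 was again 0.91 but did not pass (edgeR adjusted p = 0.118).

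DPH against Cap-Clip asked the same question with the other acid pyrophosphatase. MLP1 and NIC96 had the lowest log2 fold changes, and GSP1 and POM33 the highest: 8 of 36 fell and 2 rose, against 17.1% lower and 19.6% higher of all 5036 regions. The 2 comparisons share the DPH libraries. NIC96 had 24.2 and 17.6 CPM with DPH and 48.9 and 45.0 CPM with Cap-Clip, a log2 fold change of -1.20 (edgeR adjusted p = 0.000578). MLP1 had 8.30 and 10.98 CPM with DPH and 28.2 and 21.5 CPM with Cap-Clip, a log2 fold change of -1.20 (SE 0.25, edgeR adjusted p = 0.00205). NUP1 had 24.9 and 24.7 CPM with DPH and 58.6 and 45.2 CPM with Cap-Clip, a log2 fold change of -0.99 (edgeR adjusted p = 0.00111). In these genes DPH lay below both Cap-Clip libraries. MLP2, NUP157, NUP85, NUP84 and NUP57 also fell, with log2 fold changes of -1.07, -0.94, -0.71, -0.70 and -0.49. GSP1 had 1249 and 1644 CPM with DPH and 841 and 975 CPM with Cap-Clip, a log2 fold change of 0.67 (SE 0.19, edgeR adjusted p = 0.0137). POM33 had 110 and 180 CPM with DPH and 84.5 and 107 CPM with Cap-Clip, a log2 fold change of 0.59 (edgeR adjusted p = 0.0274). Under library totals these became 0.055 for GSP1 and -0.033 for POM33, and the 8 lower calls stayed. MLP1, NIC96, NUP1 and NUP85 passed without any 1 library, and the other 4 lower calls and both higher calls were lost without DPH replicate 2 (POM33 0.15, GSP1 0.46 and MLP2 -0.59), and all of these but MLP2 also without a Cap-Clip library.

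Cap-Clip against TAP gave 0 calls among the 36 genes in edgeR and in DESeq2, and 1 call (0.0199%) among 5036 regions in edgeR. At an unadjusted p under 0.05, 12 of the 36 genes and 525 of 5036 regions passed. The median log2 fold change was -0.25, and 29 of 36 values were below 0. MLP1 stood between the other treatments, with 28.2 and 21.5 CPM with Cap-Clip and 40.0 and 41.3 CPM with TAP, a log2 fold change of -0.81 (SE 0.17, edgeR adjusted p = 0.176). NUP192 had 14.8 and 7.88 CPM with Cap-Clip and 16.8 and 18.1 CPM with TAP, and NUP82 had 14.1 and 13.3 CPM with Cap-Clip and 21.5 and 21.7 CPM with TAP. In an added fit, chosen after the data were seen, only the Cap-Clip and TAP libraries entered and set the spread. There 8 of the 36 genes fell and none rose, against 2.52% lower and 1.07% higher of 5151 regions. They were MLP1 (log2 fold change -0.83, edgeR adjusted p = 0.00100), NUP192, NUP82, CRM1, NUP159, POM152, NUP145 and KAP123, the last with -0.47 (edgeR adjusted p = 0.0190).

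**Figure D2:**
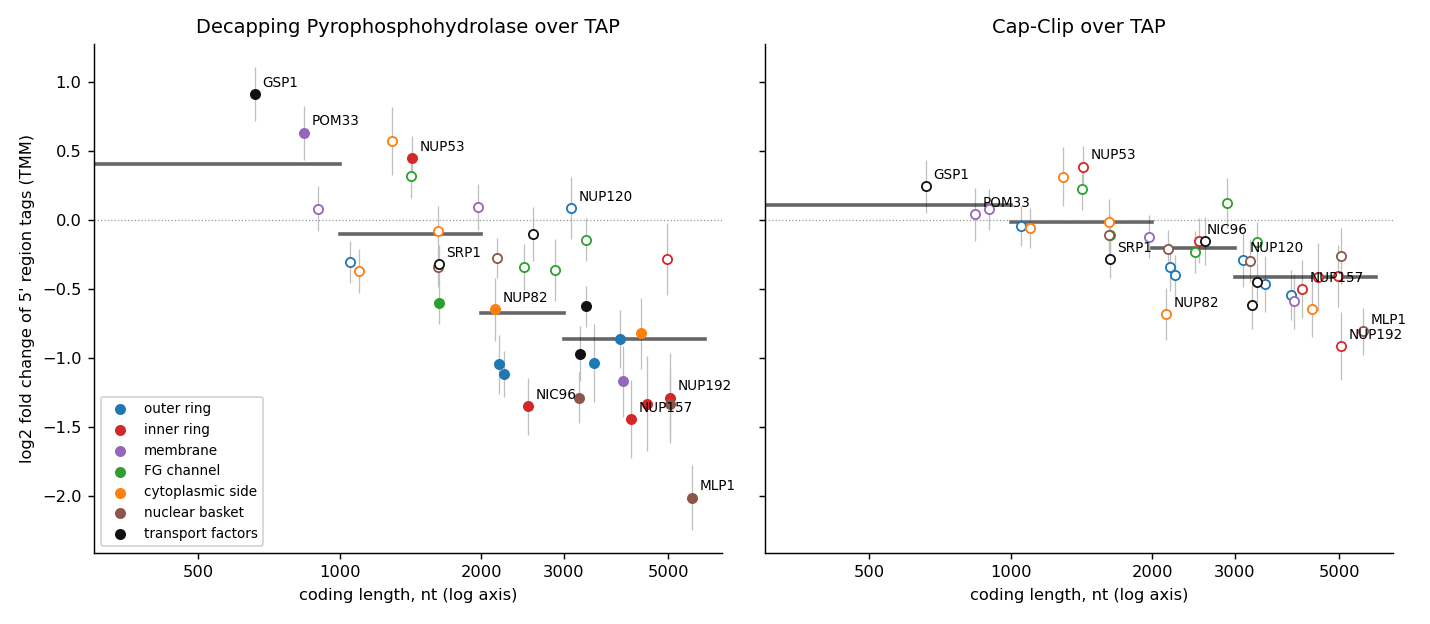
Log2 fold change of 5' region tags (TMM-scaled) against coding length (log axis) for the 36 genes, DPH over TAP on the left and Cap-Clip over TAP on the right, coloured by role, with thin bars for the SE, filled symbols for called genes and grey lines for the median of all regions in each length class. Values fall with length in both panels, Spearman's rho being -0.71 on the left and -0.80 on the right over the 36 genes.

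The differences followed coding length. Over the 36 genes the log2 fold change of DPH over TAP had a Spearman rho of -0.71 with coding length, and over all 5036 regions -0.60. The genes share libraries and scaling, so these are descriptions of these libraries. For DPH over Cap-Clip rho was -0.54 over the 36 genes and -0.47 over all regions, and for Cap-Clip over TAP it was -0.80 and -0.57. Without GSP1 the first value was -0.69. Longer genes had fewer tags (rho -0.62 between mean level and length over the 36 genes and -0.44 over all). Among genes with a mean of 20 to 120 CPM rho for DPH over TAP was -0.62 over 26 of the 36 genes and -0.57 over 2295 regions.

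In length classes the medians of the genes lay near those of all regions of their size. Below 1000 nt the median for DPH over TAP was 0.63 over 3 of the genes (GSP1, POM33 and POM34) and 0.41 over 1935 regions. There 2 of the 3 genes rose, beside 45.3% of the regions. From 1000 to under 2000 nt it was -0.19 over 10 of the genes and -0.10 over 1950 regions. From 2000 to under 3000 nt it was -0.51 over 8 of the genes and -0.67 over 730 regions. From 3000 nt it was -1.04 over 15 of the genes and -0.86 over 421 regions. There 12 of the 15 genes (80.0%) fell, beside 55.3% of the regions. After the class median was taken off, 19 genes lay below it and 17 above, with a median of -0.05. MLP1 lay 1.15 log2 units below, followed by NIC96 at -0.68, NUP157 at -0.58, NUP57 at -0.50 and MLP2 at -0.47. NUP120 lay highest at 0.95, followed by NUP116 at 0.72, NUP42 at 0.67, NUP188 at 0.58 and KAP95 at 0.57. In NUP120 the far part of the region, over 200 nt upstream, held 17 and 24 of 43 and 51 tags with DPH and 24 and 4 of 332 and 43 tags with TAP. Counted over 200 nt, NUP120 was -0.63 (edgeR adjusted p = 0.069). For Cap-Clip over TAP the medians of the 4 classes, short to long, were 0.08, -0.05, -0.22 and -0.46 over the 36 genes, and 0.11, -0.02, -0.20 and -0.42 over all regions.

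Length also moved with the replicate within a treatment. The log2 ratio of replicate 1 to replicate 2 had a rho with length of 0.30 for DPH, 0.69 for Cap-Clip and 0.10 for TAP over the 36 genes, and 0.01, 0.18 and -0.09 over all regions. The 2 Cap-Clip libraries of these genes thus differed along length too. The share of tags inside coding regions also moved with length and treatment, and its part in the relation was not tested.

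Tags inside the coding region, beyond its first 50 nt, are 5' ends that lie downstream of the usual starts. Coding regions of 35 of the 36 genes had enough tags for a test, all but NUP42. With DPH 22 of 35 rose and none fell against TAP, beside 59.1% higher and 0.389% lower of 3858 coding regions. The counts were scaled with the factors of the 5' regions. Under library totals 5 of 35 rose and 2 fell, beside 13.2% and 2.88%, and MLP1 was then among the lower ones (-0.80, edgeR adjusted p = 0.0368). NUP82 had 21.1 and 15.3 CPM in its coding region with DPH and 4.62 and 4.03 CPM with TAP, a log2 fold change of 1.95 (SE 0.30, edgeR adjusted p = 3.98e-09), while its 5' region fell. It was among 8 genes, with GSP1, NDC1, NSP1, NUP49, NUP60, POM33 and SRP1, whose coding regions passed without any 1 library. NUP49 had 15.1 and 14.1 CPM with DPH and 3.54 and 4.03 CPM with TAP, a log2 fold change of 1.99. NSP1 had 27.2 and 25.1 CPM with DPH and 7.44 and 7.55 CPM with TAP, a log2 fold change of 1.79. Both channel proteins thus had far more internal tags with DPH. In GSP1 and POM33 the coding region and the 5' region both rose, with log2 fold changes of 1.67 and 1.77 for the coding region. MLP1 had 23.4 and 25.5 CPM in its coding region with DPH and 25.1 and 26.7 CPM with TAP, which overlap (log2 fold change -0.06, edgeR adjusted p = 0.857). Against Cap-Clip 16 of 35 coding regions rose and none fell with DPH, beside 42.1% and 0.233%. Cap-Clip against TAP gave 0 calls among 3858 coding regions in edgeR, with 1 of 35 at an unadjusted p under 0.05 and 454 of 3858 overall. The fit of the Cap-Clip and TAP libraries alone gave 1 of 35 higher and 37 calls in all.

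**Figure D3:**
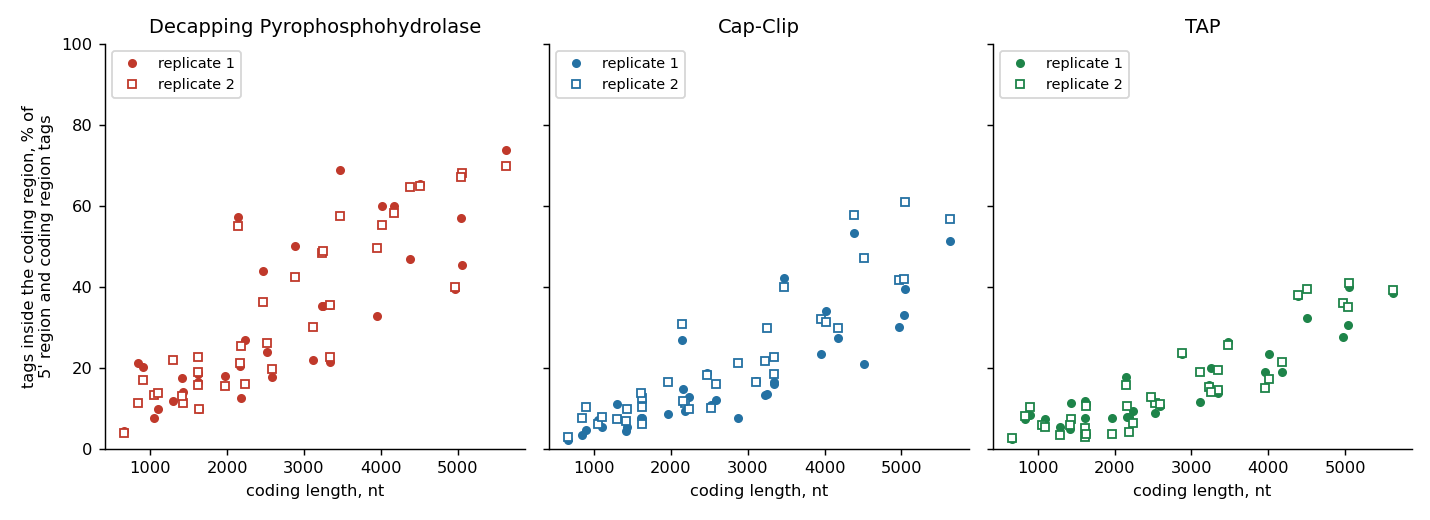
Share of a gene's tags that lie inside its coding region (percent of 5' region and coding region tags) against coding length in nt, for DPH, Cap-Clip and TAP, with circles for replicate 1 and squares for replicate 2. The share is higher in longer genes with each enzyme and highest with DPH, where MLP1 reached 73.8% and 69.9%.

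The coding region took 17.3% and 16.01% of the tags of the 36 genes with DPH, 10.9% and 12.5% with Cap-Clip, 10.5% and 10.3% with TAP, and 92.0% and 56.2% without enzyme. The 95% Wilson interval of the last share, that of no-enzyme replicate 2, was 50.6% to 61.7%, and the intervals cover counting error only. Over all genes the same shares were 6.66% and 6.69% with DPH, 4.86% and 6.06% with Cap-Clip, 5.39% and 4.90% with TAP, and 84.5% and 24.5% without enzyme. In each of these libraries the pore genes thus had the higher share. In the 15 genes from 3000 nt the coding region took 41.9% and 47.5% with DPH, 26.1% and 33.7% with Cap-Clip, and 22.8% and 24.0% with TAP. In 12 genes under 2000 nt, without GSP1, it took 14.9% and 14.0% with DPH, 6.58% and 8.78% with Cap-Clip, and 6.94% and 6.02% with TAP. The share followed length with a rho of 0.89 for DPH, 0.92 for Cap-Clip and 0.89 for TAP over the 36 genes. Per kilobase of coding region and 100 tags in the 5' region, the median gene of the 36 had 17.1 internal tags with DPH, 8.82 with Cap-Clip and 6.09 with TAP, against 16.4, 9.73 and 8.02 over all genes with at least 20 tags. MLP1 had 73.8% and 69.9% of its tags inside with DPH, 51.3% and 56.8% with Cap-Clip, and 38.5% and 39.3% with TAP. GSP1 had 4.28% and 3.92% with DPH, 2.24% and 2.89% with Cap-Clip, and 2.47% and 2.63% with TAP.

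Single start positions were compared next, to see whether a region moved as a whole. Of the 36 genes, 35 had at least 1 position with enough tags, 161 positions in all, and NUP192 had none. With DPH against TAP 24 positions rose and 54 fell, beside 22.6% higher and 14.9% lower of 27879 positions. Of the 24 that rose, 19 were in GSP1. Every called position was lower in 21 genes and higher in 2, POM33 and NUP53, while GSP1, NUP2 and NUP116 held both directions. In some of the 21, such as NUP157 and SRP1, only 1 position was called. Of 35 main starts, 17 fell and 1 rose. The shares over all genes were not counted, either for genes by direction or for main starts, so these counts have no background. Main starts were picked by their mean level in the same libraries. At the MLP1 main start, 157 nt upstream of the start codon and shown above, DPH had 3 and 7 tags and TAP 249 and 42 tags, which is 2.15 and 2.55 CPM with DPH and 18.9 and 22.4 CPM with TAP, a log2 fold change of -3.04 (SE 0.40). At the NUP157 main start, 21 nt upstream, DPH had 4 and 3 tags and TAP 112 and 14 tags, a log2 fold change of -2.26. Both genes thus had fewer tags with DPH at their main start, and the second call was lost without DPH replicate 2 (-1.55). With DPH the strongest position of NUP157 lay 2 nt downstream of its main start. Other positions that fell were 62 nt upstream of NUP84 (-2.30), 81 nt upstream of NUP57 (-2.26) and 69 nt upstream of NUP1 (-1.94), with edgeR adjusted p = 0.000759, 0.00102 and 0.000573. The NUP57 and NUP1 positions no longer passed without DPH replicate 2 (-1.48 and -1.09). DPH against Cap-Clip gave 15 positions higher and 29 lower, beside 20.2% and 11.3%. Cap-Clip against TAP gave 0 of 161 in edgeR and 2 of 27879 (0.00717%), with 23 of 161 and 1624 of 27879 at an unadjusted p under 0.05.

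In GSP1, tags close to the start codon were more frequent with DPH than with Cap-Clip or TAP. Whether these ends are transcription starts was not tested. The 30 bases just before the start codon, chrXII:721431-721460 of the R64 genome on the minus strand, are shown with capitals at the 7 positions, 16 to 6 nt upstream, that rose with DPH against TAP.
GSP1: gaaaatcaaataaaCtcATTTatATtataa
At the T 11 nt upstream DPH had 37 and 128 tags, Cap-Clip 1 and 0, and TAP 1 and 0. At the T 12 nt upstream DPH had 87 and 211 tags, Cap-Clip 1 and 4, and TAP 3 and 0. At the C 16 nt upstream DPH had 33 and 94 tags, Cap-Clip 1 and 0, and TAP 1 and 1. These 3 positions are nearly empty with the acid pyrophosphatases. The ratio of DPH to TAP in CPM of library totals, over both libraries, was 391 (95% counting interval 69.2 to 15537) for the first, 235 (79.8 to 1148) for the second and 150 (40.8 to 1256) for the third. The A 13 nt upstream, which does have tags with TAP, had 43 and 159 tags with DPH and 60 and 10 with TAP, a ratio of 6.84 (5.19 to 9.11) and a log2 fold change of 3.29 (SE 0.29). The C 36 nt upstream rose too, with 5.73 and 16.4 CPM with DPH and 3.79 and 2.67 CPM with TAP, a log2 fold change of 1.78.

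**Figure D4:**
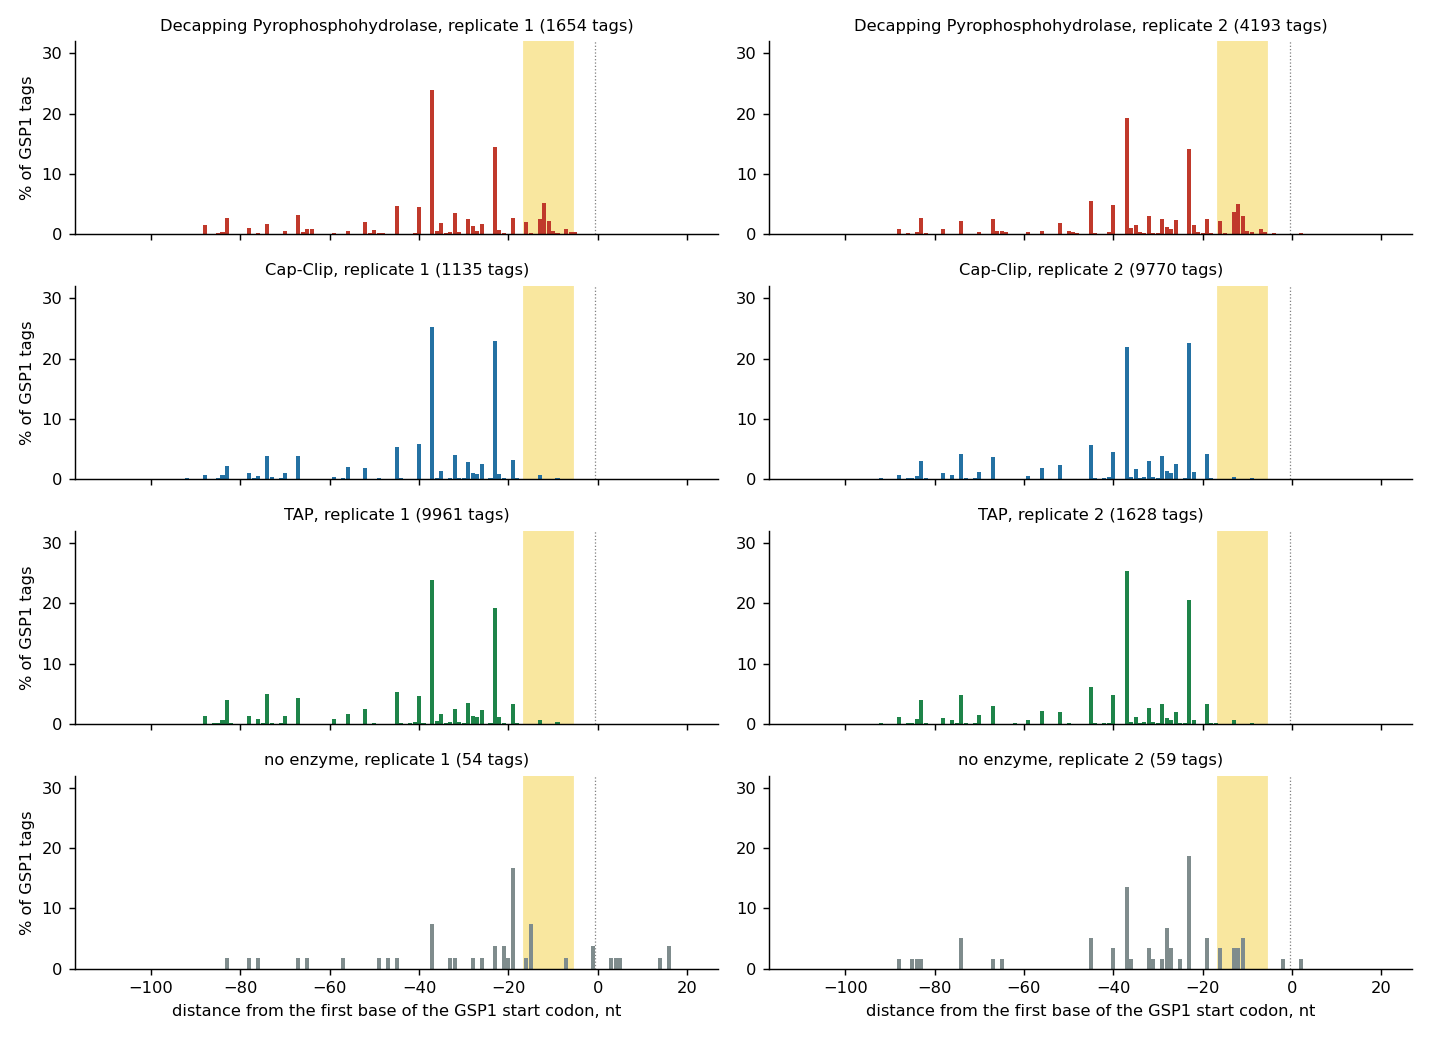
Tags by distance from the first base of the GSP1 start codon (nt), as percent of the tags in its 5' region, in rows for DPH, Cap-Clip, TAP and no enzyme and in columns for replicates 1 and 2, with the stretch 16 to 6 nt upstream shaded. The main start 37 nt upstream stands out with each enzyme, and the shaded stretch holds 14.7% and 16.7% of the tags with DPH, against 0.96% and 1.04% with TAP. The stretch is bounded by positions that rose with DPH in these same libraries.

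The stretch 16 to 6 nt upstream of GSP1 held 14.7% and 16.7% of its tags with DPH, 1.32% and 0.84% with Cap-Clip, and 0.96% and 1.04% with TAP. The 95% Wilson intervals with DPH were 13.1% to 16.5% and 15.6% to 17.8%. The stretch is bounded by positions that rose with DPH in these same libraries. A higher share with DPH than with TAP thus follows from the choice, which the intervals do not take into account. Without enzyme it held 11.1% of 54 tags (5.19% to 22.2%) and 15.3% of 59 tags (8.24% to 26.5%), in replicate 1 mostly at the position 15 nt upstream. Leaving the stretch out, a choice made after the data were seen, GSP1 still rose under TMM with DPH against TAP (log2 fold change 0.68, SE 0.19, edgeR adjusted p = 0.00792). It no longer passed against Cap-Clip (0.44, edgeR adjusted p = 0.0788). In CPM of library totals, GSP1 without the stretch had 789 and 1004 with DPH and 919 and 922 with TAP, which overlap. The main start 37 nt upstream had 284 and 294 CPM with DPH and 181 and 220 CPM with TAP, a log2 fold change of 0.54 (SE 0.22, edgeR adjusted p = 0.0484), and -0.0093 under library totals. Of the 35 main starts tested, that of GSP1 alone rose, and it did not pass in any of the 6 fits that leave out 1 library (0.36 to 0.67).

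Tags that begin with a pyrimidine were the smaller share with each enzyme, and were more frequent with DPH than with Cap-Clip or TAP. Of 8 tested positions of the 36 genes that begin with T, 7 rose with DPH against TAP, as did 1187 of 1324 such positions in all genes. Their median log2 fold change was 7.07 in the 36 genes and 6.04 in all genes. Positions nearly empty with Cap-Clip and TAP enter the test through their DPH tags, so for these a rise was set by the filter. The 7 include the T positions 12 and 11 nt upstream of GSP1 described above. Of 6 that begin with C, 2 rose and 1 fell, beside 439 that rose and 35 that fell of 794 in all genes. Of 35 that begin with G, none rose and 16 fell, beside 917 that rose and 1053 that fell of 6885 in all genes. Of 112 that begin with A, 15 rose and 36 fell, beside 3758 that rose and 3064 that fell of 18876 in all genes. In GSP1 18.1% and 20.9% of tags began with a pyrimidine with DPH, 7.40% and 7.93% with Cap-Clip, and 9.30% and 8.42% with TAP. In the other 35 genes together it was 8.48% and 8.33% with DPH, 3.31% and 3.25% with Cap-Clip, and 3.09% and 3.05% with TAP. Over all genes it was 7.41% and 8.75% with DPH, 2.05% and 2.38% with Cap-Clip, and 2.42% and 2.09% with TAP. NUP2 has a position 12 nt upstream, chosen after its values were seen, that begins with A and so is not a pyrimidine start. It had 8 and 16 tags with DPH and 0 in every other library. In CPM that is at least 18.96-fold higher than TAP when 3 tags over both TAP libraries are taken as the limit.

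The no-enzyme libraries show which ends are ligatable without opening a cap. Against them 32 of 36 genes rose with TAP and 30 with Cap-Clip, and 12 with DPH, beside 75.7%, 70.9% and 38.4% of 4964 regions. Levels here are CPM of library totals. NUP188 was lower with each enzyme, and GLE1 with DPH, beside 1.37% lower with TAP, 1.43% with Cap-Clip and 2.05% with DPH. Most of the depth lies in no-enzyme replicate 1, where 0 tags allow up to 4.07 CPM, against 37.2 CPM in replicate 2. Leaving out no-enzyme replicate 2 leaves 1 library in that group. The median log2 fold change of all regions was then 1.92 with DPH, 2.59 with Cap-Clip and 2.69 with TAP. Without replicate 1 it was 0.57, 1.15 and 1.25. With both it was 1.41, 2.03 and 2.15, a shift that TMM scaling takes away. Under TMM 0, 0 and 1 of the 36 genes rose and 3 fell in each. Over all 4964 regions there were 366, 295 and 307 calls, of which 29.2%, 17.3% and 24.1% were higher. DESeq2 called 0 of the 36 genes higher with each enzyme and 5, 3 and 3 lower. Its calls over 5789 regions were 862, 716 and 743, of which 17.2%, 11.9% and 13.6% were higher. The calls against no enzyme are therefore tied to scaling by library totals.

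**Figure D5:**
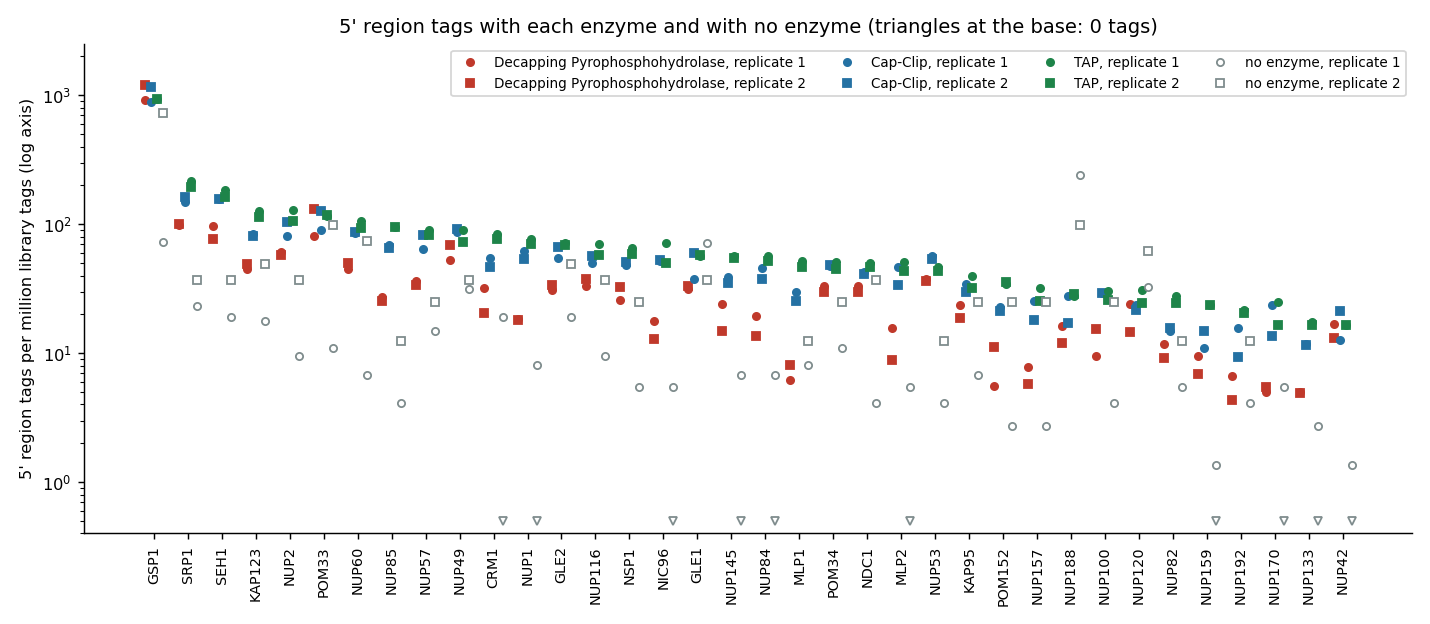
Tags in the 5' region of each gene in CPM of library totals (log axis), ordered by mean level, with DPH in red, Cap-Clip in blue, TAP in green and no enzyme in open grey symbols; circles and squares are replicates 1 and 2, and triangles at the base are libraries with 0 tags. In most genes the enzyme-treated libraries lie above no-enzyme replicate 1, and in NUP188 all 6 lie below both no-enzyme libraries.

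SRP1 had 97.8 and 100.6 CPM with DPH, 149 and 162 CPM with Cap-Clip, and 215 and 194 CPM with TAP. The no-enzyme libraries had 23.1 and 37.2 CPM. Its log2 fold changes were 1.95 with DPH, 2.60 with Cap-Clip and 2.996 with TAP (edgeR adjusted p = 0.0125, 0.000283 and 2.58e-05), and 2.10, 2.76 and 3.15 without no-enzyme replicate 2. The call with DPH was lost without DPH replicate 1 (1.92, edgeR adjusted p = 0.141), DPH replicate 2 (1.88, edgeR adjusted p = 0.163) or no-enzyme replicate 1 (1.42, edgeR adjusted p = 0.679). NUP85 rose most in the outer ring, by 4.25 on the log2 scale with TAP, and by 4.53 without that library. KAP123 had 44.7 and 48.9 CPM with DPH and 126 and 113 CPM with TAP. The no-enzyme libraries had 17.7 and 49.6 CPM, and so overlapped with the DPH libraries. Without no-enzyme replicate 2 the log2 fold change with DPH passed, at 1.41 (edgeR adjusted p = 0.00229), against 1.12 with it (edgeR adjusted p = 0.0584). GSP1 had 924 and 1205 CPM with DPH, 895 and 1153 CPM with Cap-Clip, and 928 and 932 CPM with TAP. The no-enzyme libraries had 73.3 and 731 CPM, far apart, and the log2 fold change with TAP was 1.27 (edgeR adjusted p = 0.243). Without no-enzyme replicate 2 the values were 3.86 with DPH, 3.81 with Cap-Clip and 3.66 with TAP.

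NUP188 had 16.2 and 12.1 CPM with DPH, 27.6 and 17.2 CPM with Cap-Clip, and 27.7 and 28.6 CPM with TAP. The no-enzyme libraries were higher, with 240 and 99.1 CPM. Its log2 fold changes were -3.91 with DPH, -3.35 with Cap-Clip and -2.88 with TAP, and without no-enzyme replicate 1 the calls with DPH (-2.85) and TAP (-1.82) were lost. Without no-enzyme replicate 2 they were -4.13, -3.58 and -3.10. Of its 177 and 8 no-enzyme tags, 117 and 5 lay 387 nt upstream of the start codon and 38 and 0 at the neighbouring position 386 nt upstream. The annotation places the 5' end of SNR85, a small nucleolar RNA gene on the same strand (chrXIII:67768-67938), 389 nt upstream. With 200 nt upstream in place of 400, NUP188 was 0.20 with DPH, 1.43 with Cap-Clip and 1.92 with TAP, and NUP120 changed likewise, with 0.74, 1.46 and 2.11. GLE1 had 31.3 and 33.1 CPM with DPH, 37.8 and 59.7 CPM with Cap-Clip, and 57.0 and 57.8 CPM with TAP. The no-enzyme libraries had 72.0 and 37.2 CPM. It fell with DPH (log2 fold change -1.04, SE 0.37, edgeR adjusted p = 0.0171), a call lost without no-enzyme replicate 1 (-0.20), without DPH replicate 2 and over 200 nt upstream, and at -1.16 without no-enzyme replicate 2. Its no-enzyme tags lay mostly 36 nt upstream (20 and 1) and at its main start 38 nt upstream (17 and 1). In the coding regions 34 of 35 genes fell with DPH, and 35 of 35 with Cap-Clip and with TAP, against no enzyme, beside 96.1% of 4312 with each enzyme. Without no-enzyme replicate 2 all 36 were tested and fell with each enzyme.

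Of a list of 30 other transport genes, 29 were tested. With DPH against TAP 5 rose and 12 fell, with a median log2 fold change of -0.30, beside the 23.8% each way of all regions. The 4 with the lowest values code for importins: KAP114 fell by 2.32 on the log2 scale, PSE1 by 1.48, SXM1 by 1.47 and KAP120 by 1.33. The genes that rose under TMM scaling include NTF2, which imports Ran and had 1278 and 1518 CPM with DPH and 623 and 577 CPM with TAP, and GSP2, the second Ran gene, with 105 and 103 CPM with DPH and 50.1 and 50.4 CPM with TAP. Their log2 fold changes were 1.22 and 1.05, and those of PER33, a relative of POM33, and MTR2, a part of the RNA export receptor, were 1.26 and 0.60. Under library totals 2 of the 29 rose and 24 fell, and MTR2 was -0.13. Spearman's rho with coding length was -0.79 over the 29 genes.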

How the data were processed

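The deposited table holds counts of 5' ends, whole numbers for each position of R64 (sacCer3) by strand, in 8 columns, 1 per library. Per the labels' protocols, 60 µg of total RNA was dephosphorylated, split into 4 aliquots, ligated to an oligonucleotide that carries 8 random bases as a barcode, selected for poly(A) and copied from random primers. Reads were aligned with Novoalign, per the submitters' processing notes. Whether equal barcodes were collapsed and how multi-mapped reads were placed is not given in the sources used here, so counts may hold copies of 1 molecule and intervals cover counting error only.

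The 36 genes, the lists and the roles were chosen with earlier results of these data known. Counts were summed over 5' regions, over coding regions beyond 50 nt and at single positions of all 6002 genes. edgeR 4.0.16 (quasi-likelihood, filterByExpr, 2-sided, Benjamini-Hochberg adjusted p under 0.05 over all features) compared enzymes over 6 libraries with TMM scaling, and each enzyme with no enzyme over 8 libraries scaled to totals. Scripts were tested on simulated data. Sequences were shown for the 10 most abundant genes and for the 3 highest and 3 lowest changes called between DPH and TAP. Single positions were named where they were main starts or among the 5 largest changes each way with at least 5 CPM. Alternatives were other scaling, DESeq2 1.42.0, no filter, 200 nt upstream, all 8 libraries in 1 fit, a replicate block and leaving out libraries. Between replicates, chi-square per degree of freedom was 8.47 to 13.7, above counting noise.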

Additional observations from a re-analysis of the deposited data

How the results depend on the processing

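Depth and scaling set the limits. In no-enzyme replicate 2, 0 tags allow up to 37.2 CPM, so most of the genes cannot be told from absent there. Results between enzymes are relative to the typical gene. Of 1084 values over 106 results for named genes and positions under the alternatives, 891 kept direction and side of the threshold, 109 were no longer past it, 52 newly passed and 32 changed sign. Where no cause is visible from the fit itself, the cause was not tested.

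With library totals in place of TMM, DPH against TAP called 0 of the 36 genes higher and 31 lower, and NUP120 became -0.65, NUP53 -0.30, POM33 -0.11, POM34 -0.66, NDC1 -0.65, NUP49 -0.42 and NUP42 -0.19. Of all calls 50.0% were higher with TMM and 7.13% with totals. DPH against Cap-Clip then had 3026 calls with 0 and 29 of the 36 genes higher and lower (53.4% against 7.11% of calls higher), and POM33 became -0.033. Cap-Clip against TAP had 28, 2 of them lower among the 36. Coding regions had 621 calls for DPH against TAP (5 and 2) and 324 against Cap-Clip (2 and 1). Among single positions of the 36 genes, 13 were higher and 98 lower against TAP and 74 lower against Cap-Clip. The share over all positions under this scaling is not given here, so these counts have no background. The GSP1 main start became -0.0093.

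Against no enzyme, TMM left 307 calls with TAP (1 and 3 of the 36), 295 with Cap-Clip (0 and 3) and 366 with DPH (0 higher). NUP49 became -0.92 and GLE2 -0.65 with TAP, and KAP123 -0.24 with Cap-Clip and -0.41 with DPH. DESeq2 left 743 calls with TAP (0 and 3), 716 with Cap-Clip (0 and 3) and 862 with DPH (0 and 5), with NUP49 at -1.002 and GLE2 at -0.75 with TAP and KAP123 at -0.36 with Cap-Clip and -0.62 with DPH. For coding regions TMM left 566 calls with TAP (1 and 0), 544 with Cap-Clip (1 and 1) and 978 with DPH (4 and 10), and GSP1 became 0.031 with TAP. DESeq2 had 1141 calls for DPH against Cap-Clip (1 and 5 of the 36).

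With 200 nt upstream, NUP120 became -0.63 for DPH against TAP, Cap-Clip against TAP had 0 calls, and none of the 36 was lower than no enzyme: NUP188 was 1.92 with TAP, 1.43 with Cap-Clip and 0.20 with DPH, and NUP120 2.11, 1.46 and 0.74. Without a filter Cap-Clip against TAP had 22 calls (1 lower among the 36). All 8 libraries in 1 fit gave 1 of the 36 higher for DPH against TAP, 0 higher against Cap-Clip and 0 calls for Cap-Clip against TAP. The Cap-Clip and TAP libraries alone, an alternative added after the data were seen, gave 185 calls (8 lower) for 5' regions, 37 (1 higher) for coding regions and 242 (5 lower) for single positions.

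The labels give the groups the same replicate numbers and do not say what they mark. The differences between replicates of 2 groups correlated with 0.0269 to 0.193 over 5' regions, so the numbers were not taken to pair the libraries. With a replicate block, GLE2 (-0.40, adjusted p = 0.0377) and SRP1 (-0.32, adjusted p = 0.0398) passed for DPH against TAP and SRP1 no longer passed for DPH against no enzyme (1.90, adjusted p = 0.0605). Cap-Clip against TAP then had 5 calls among coding regions and 68 among positions (1 lower in the 36).

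Leaving out 1 library at a time gave 1351 to 2621 calls for DPH against TAP (1 to 4 of the 36 higher, 13 to 18 lower), 953 to 2152 against Cap-Clip (0 to 2, 6 to 11), and 0 to 212 for Cap-Clip against TAP (0 to 9 lower). Against no enzyme the ranges were 489 to 4502 with TAP (8 to 33, 0 to 1), 322 to 4339 with Cap-Clip (2 to 32, 1) and 0 to 3377 with DPH (0 to 21, 0 to 3). Coding regions had 1163 to 2543 for DPH against TAP (12 to 23 higher), 994 to 1593 against Cap-Clip (11 to 15), 0 to 36 for Cap-Clip against TAP (0 to 1), and 1682 to 5096, 1534 to 5100 and 1425 to 5089 against no enzyme with TAP (21 to 36 lower), Cap-Clip (18 to 36) and DPH (20 to 36). Single positions had 5346 to 12528 for DPH against TAP (10 to 33, 18 to 62), 4198 to 10614 against Cap-Clip (9 to 27, 10 to 31) and 0 to 245 for Cap-Clip against TAP (0 to 1, 0 to 6). Signs changed within the range of these fits for NUP120 (-0.23 to 0.47) and KAP95 (-0.24 to 0.076) for DPH against TAP, NUP42 (-0.17 to 0.42) for Cap-Clip against TAP, the NUP192 coding region (-0.60 to 0.13) for DPH against TAP, and, without no-enzyme replicate 1, GLE1 with TAP (-0.33 to 0.62) and with Cap-Clip (-0.81 to 0.48) and KAP123 with DPH (-0.076 to 1.41).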
